A study of Mus musculus with 36 samples.

Results

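The comparison described here sets a floral fragrance directly against a mint fragrance in the mouse olfactory epithelium, the sheet of sensory neurons and supporting cells that lines the back of the nose. It was chosen as the 3 floral and the 3 mint libraries of 1 labelled batch, 6 of the 36 libraries of the series, and it covers every gene in that batch's table. All animals were wild-type C57BL/6J males of 8 weeks, housed alone and kept without odor for 4 h. Each was then exposed for 90 min to 10 µL of its fragrance on filter paper. The labels name the firm that blended the fragrances, and their ingredients and concentrations are not given in the sources used here. Besides the floral and the mint group, the batch holds 3 libraries from mice given the floral-mint fragrance and 3 from mice given an empty paper, and no group carries a mutation or a transgene. The labels call the 3 libraries of a group biological replicates and do not say whether tissue was pooled.

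An olfactory sensory neuron settles on a single odorant receptor gene out of a very large family, and an odorant excites the neurons whose receptors it fits. Class I receptors form the family branch shared with fish, and class II receptors make up most of the family in mammals. A neuron that has fired phosphorylates ribosomal protein S6. Pulling down ribosomes with an antibody against phosphorylated S6 (pS6-IP) and sequencing the attached RNA therefore enriches the receptor messages of the neurons that responded. In such bulk libraries, more or fewer neurons of a type in the precipitate and more or less receptor RNA per neuron cannot be told apart.

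For 51 of the 60 receptors that passed the test of floral against mint, the closest tested relative did not pass. Of all 847 receptor genes tested, 787 did not pass. Coding stretches of 5 genes show where 2 sets of relatives differ most. Olfr170, Olfr171 and Olfr169 lie next to each other on chromosome 16 and belong to the family MOR273 (MOR numbers group mouse receptors by sequence). Olfr170 was 4.42-fold higher with floral than with mint, Olfr171 was 1.57-fold higher, and Olfr169 was high with both fragrances and did not pass the test. The stretch of 120 coding bases without gaps that holds the largest number of differing positions is bases 809 to 928 of Olfr170. In Olfr171 and in Olfr169 it is bases 812 to 931. These bases are given 5′ to 3′ on the coding strand from the GENCODE vM21 transcripts (GRCm38), with capitals at the 12 positions that are not the same in all 3 genes.
Olfr170: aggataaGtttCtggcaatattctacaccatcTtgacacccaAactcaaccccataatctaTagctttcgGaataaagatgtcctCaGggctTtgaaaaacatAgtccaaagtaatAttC
Olfr171: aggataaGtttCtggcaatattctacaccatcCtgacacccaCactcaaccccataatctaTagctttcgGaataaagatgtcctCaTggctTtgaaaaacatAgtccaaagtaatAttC
Olfr169: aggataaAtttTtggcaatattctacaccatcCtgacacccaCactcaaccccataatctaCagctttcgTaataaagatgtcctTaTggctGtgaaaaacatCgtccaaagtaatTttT

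The second set is Olfr46, one of the receptors most raised by floral over mint, and Olfr538, its closest tested relative, both on chromosome 7. Over the whole coding sequence they were 94.25% identical. Coding bases 399 to 518 of each, again the stretch with the most differences, are shown, with capitals at the 24 positions where they differ.
Olfr46: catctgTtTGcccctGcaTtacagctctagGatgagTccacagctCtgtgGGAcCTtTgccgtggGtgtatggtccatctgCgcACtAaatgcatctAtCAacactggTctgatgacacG
Olfr538: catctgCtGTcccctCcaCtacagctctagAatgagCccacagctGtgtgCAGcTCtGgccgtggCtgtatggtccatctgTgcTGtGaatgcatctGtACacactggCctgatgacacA

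The 6 libraries held 26054690 to 26186076 counts with floral and 17860193 to 26037577 counts with mint. No pair of libraries of either group held the same values. Omp, which marks mature olfactory sensory neurons, was at 11030, 12650 and 11997 CPM (counts scaled to a common library size) in the floral libraries and at 12002, 12645 and 12435 CPM in the mint libraries. The summed level of 8 mature neuron markers was 19670 to 22470 CPM with floral and 21880 to 23220 CPM with mint.

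Most genes that passed the test were receptor genes. Of 19204 genes tested, 68 passed an adjusted p under 0.05 (edgeR's quasi-likelihood test with Benjamini-Hochberg adjustment over all of them; such genes are called below), which is 0.354%. Receptor genes made up 60 of these, or 7.08% of the 847 receptor genes tested. Among the 18357 other genes, which include 44 receptor pseudogenes, 8 were called, or 0.0436%. DESeq2 called 81 receptor genes and 48 others, and edgeR without a filter on low counts called 112 receptor genes and 367 others. Of the receptor genes, 23 were higher with floral (2.72% of those tested) and 37 were higher with mint (4.37%). The files list 1107 receptor genes, so 260 were too low to be tested. In all 60 called receptor genes the 3 floral libraries lay wholly above or wholly below the 3 mint libraries, as they did in 24.1% of all receptor genes tested and 11.4% of all genes tested.

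**Figure D1:**
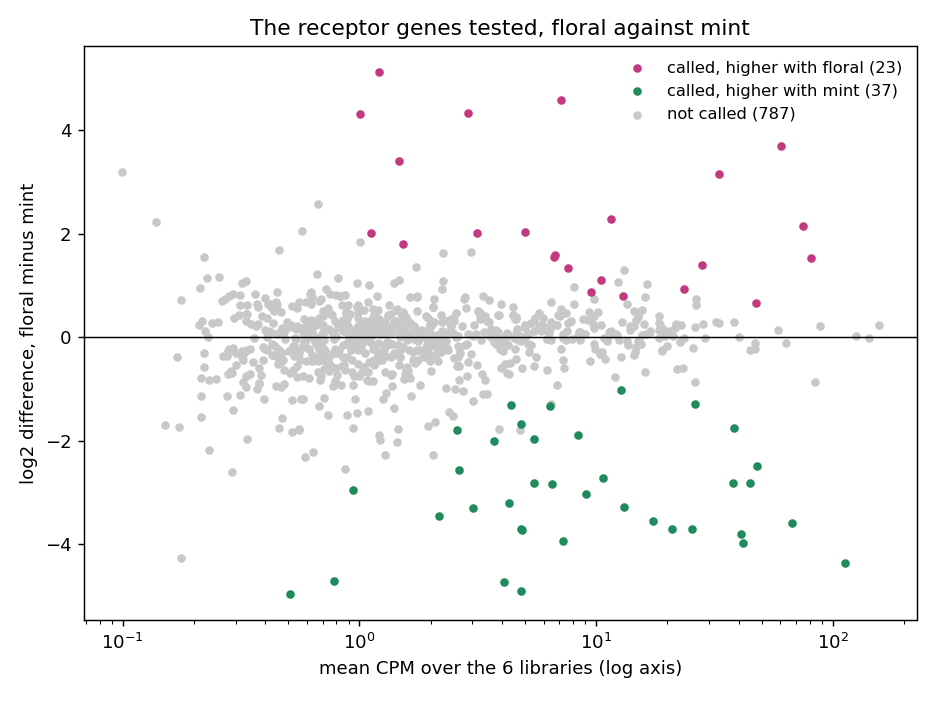
Each point is a receptor gene, with its mean CPM over the 6 libraries on the horizontal log axis and its log2 difference, floral minus mint, on the vertical axis. Of the 847 genes, 23 were called higher with floral and 37 higher with mint; the other 787 lie mostly close to 0.

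The median difference was 4.01-fold for the receptors higher with floral (range 1.57 to 34.8-fold) and 8.22-fold for those higher with mint (range 2.04 to 31.3-fold). The medians were not tested against each other. A difference over 10-fold was found for 6 of the 23 and for 15 of the 37. The called receptors came from 19 MOR families and 10 chromosomes on the floral side, and from 25 families and 10 chromosomes on the mint side. All those with a known class were class II receptors, 58 of the 734 tested, and 2 had no class. None of the 84 class I receptor genes tested was called by edgeR. Their median log2 difference was -0.13, and 8 of the 84 had an unadjusted p under 0.05 (edgeR). So did 185 of all 847 receptor genes tested and 8.19% of all genes tested. Leaving out 1 library at a time, 39 of the 60 were called in all 12 fits, and the other 21 lost their call in at least 1.

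Olfr167 (ENSMUSG00000045341), the receptor with the smallest p on the floral side, was at 64.8, 61.1 and 52.1 CPM in the floral libraries and at 6.61, 6.35 and 7.19 CPM in the mint libraries. Its log2 difference was 3.15 (SE 0.119, adjusted p 7.02e-10, edgeR). With no odor it was at 5.77, 6.50 and 7.42 CPM, so the mint libraries lay among the no-odor ones. Olfr46 (ENSMUSG00000093942) had 149, 105 and 84.1 CPM with floral, against 8.91, 8.84 and 8.20 CPM with mint. The floral libraries varied among themselves and all lay far above the mint ones, and the log2 difference was 3.70 (SE 0.218, adjusted p 1.08e-07, edgeR). Olfr538, whose sequence is set beside it above, had 2.34, 2.91 and 5.13 CPM with floral and 3.35, 2.53 and 3.82 CPM with mint. These groups overlapped, and the 95% interval of its log2 difference ran from -0.57 to 0.77.

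Olfr874 and Olfr876, neighbours on chromosome 9 in the family MOR161, were close to the bottom of the scale without floral. Olfr874 had 17.2, 15.0 and 8.78 CPM with floral and 0.623, 0.351 and 0.786 CPM with mint, a log2 difference of 4.58 (SE 0.311, adjusted p 6.23e-07, edgeR). Olfr876 had 5.30, 7.31 and 3.77 CPM with floral and 0.239, 0.156 and 0.449 CPM with mint, a log2 difference of 4.32 (SE 0.374, adjusted p 9.63e-06, edgeR). Floral library 3 was the lowest of its group for both genes. Olfr113 on chromosome 17 had the largest fold of the floral side, with 2.61, 1.94 and 2.50 CPM with floral and 0.0479, 0.0390 and 0.112 CPM with mint. These are 178 counts in the 3 floral libraries and 4 counts in the 3 mint libraries, a ratio per total count of 37.2 with an exact 95% interval of 14.3 to 138 that covers counting error alone.

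The other receptors of the floral 12 were higher by less. Olfr1257 had 44.0, 42.8 and 35.4 CPM with floral and 13.8, 13.9 and 18.8 CPM with mint, a 2.64-fold difference. Olfr318 had 17.5, 26.8 and 13.2 CPM with floral and 3.74, 4.17 and 3.99 CPM with mint, and Olfr943 had 4.91, 11.3 and 7.92 CPM with floral and 2.15, 1.71 and 2.08 CPM with mint. For both, the floral libraries were spread about 2-fold and the mint libraries lay close together. Olfr1110 had 118, 131 and 109 CPM with floral and 25.95, 49.9 and 48.4 CPM with mint. Olfr414 and Olfr287 were the smallest of the 12, at 1.90-fold and 1.72-fold, with adjusted p of 0.0014 and 0.00501 (edgeR). Both were no longer called when all 36 libraries of the series shared a fit (adjusted p 0.22 and 0.918).

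Olfr183 (ENSMUSG00000062105) was the receptor that separated the fragrances with the smallest p. It had 10.1, 9.60 and 11.6 CPM in the floral libraries and 193, 263 and 190 CPM in the mint libraries, a log2 difference of -4.37 (SE 0.142, adjusted p 1.52e-10, edgeR). Its floral level was near that with no odor, 9.26, 8.38 and 8.37 CPM. Olfr183 by itself held 0.236% ± 0.0348 of all receptor counts in the floral libraries and 4.37% ± 0.655 in the mint libraries (SD, n = 3 each). Olfr181 had 4.44, 5.48 and 5.00 CPM with floral and 62.3, 84.4 and 89.5 CPM with mint, a log2 difference of -3.98 (SE 0.181, adjusted p 6.49e-09, edgeR). Olfr187 had 5.65, 4.90 and 5.78 CPM with floral and 75.9, 80.2 and 73.7 CPM with mint. Olfr191 had 2.80, 3.15 and 2.95 CPM with floral and 33.6, 44.8 and 37.8 CPM with mint, and Olfr186 had 3.54, 4.16 and 3.08 CPM with floral and 39.9, 52.4 and 49.9 CPM with mint. All these lie together on chromosome 16, and in each the highest floral library was several fold below the lowest mint library.

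The mint 12 also held receptors from other chromosomes. Olfr281 on chromosome 15 had 8.69, 13.0 and 8.90 CPM with floral and 104, 143 and 124 CPM with mint, a log2 difference of -3.60 (SE 0.235, adjusted p 4.04e-07, edgeR). Olfr30 on chromosome 11 had 9.62, 8.94 and 9.68 CPM with floral and 51.5, 77.2 and 70.9 CPM with mint. On chromosome 2, Olfr1123 was 7.06-fold, Olfr357 8.22-fold and Olfr1047 26.6-fold higher with mint. Olfr1047 was among the low ones, with 0.389, 0.311 and 0.164 CPM with floral and 5.75, 8.57 and 9.21 CPM with mint. Below the 12, Olfr494 had a fitted fold of 31.3 that rests on 2 counts in the 3 floral libraries and 61 in the 3 mint libraries, a ratio of 36.5 with an exact 95% interval of 9.67 to 308 for counting error alone. Its adjusted p was 0.0911 without mint replicate 3, 0.14 without floral replicate 3 and 0.141 without floral replicate 1.

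Olfr506 on chromosome 7 stood apart from the rest in its floral level. It had 0.351, 0.272 and 0.287 CPM with floral and 8.62, 10.1 and 9.15 CPM with mint, a log2 difference of -4.92 (SE 0.267, adjusted p 3.99e-08, edgeR). With no odor it had 1.03, 1.31 and 0.877 CPM, above every floral library and below every mint library. It was the 1 receptor of the 60 that was called lower with floral than with no odor and higher with mint than with no odor. Its closest tested relative, Olfr502, which is 86.14% identical in coding sequence, was not called (log2 difference 0.28, adjusted p 0.737, edgeR). Olfr494, described above at a few counts and 84.87% identical to Olfr506, was called higher with mint.

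**Figure D2:**
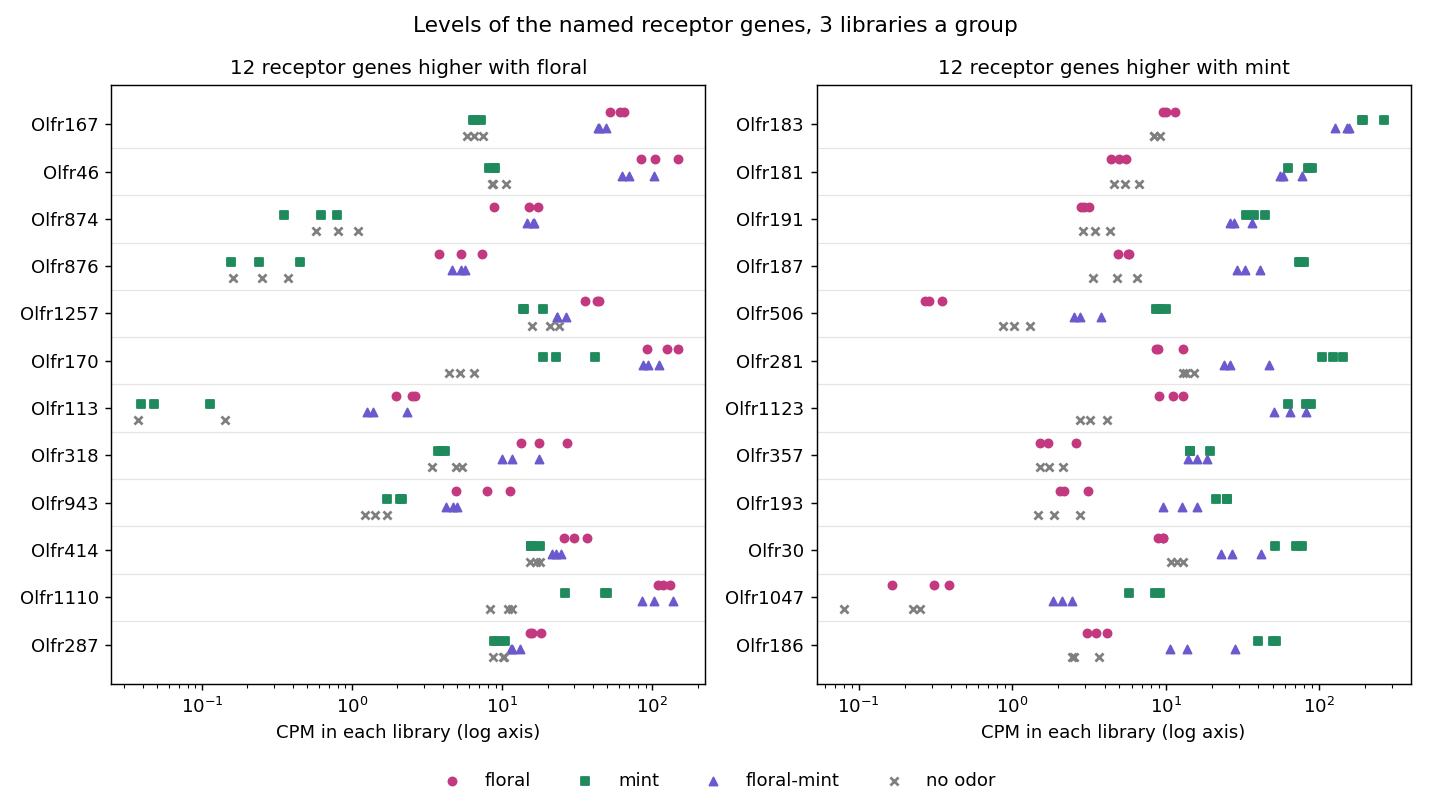
CPM of 24 named receptor genes in every library, on a log axis, with floral circles, mint squares, floral-mint triangles and no-odor crosses, 3 of each; 1 value of 0, for Olfr113 with no odor, is not drawn. The 24 were chosen among genes whose floral and mint points do not overlap, and the floral-mint points lie mostly near the higher fragrance.

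The called receptors were also compared with no odor. These comparisons come from the same fit and share libraries with the comparison of floral and mint, so they describe the same members and add no independent evidence. In the no-odor libraries the 8 mature neuron markers summed to 12270 to 14090 CPM, below every floral and mint library. Receptor genes held 0.327% ± 0.0211 of their counts (SD, n = 3). The part of these broader differences in the calls was not tested. A receptor not called against no odor may still have differed. Over all receptor genes tested, 9.68% were called higher and 1.77% lower with floral than with no odor. With mint, 12.8% were called higher and 1.53% lower than with no odor. All 23 receptors higher with floral than with mint were called higher with floral than with no odor. Among them 20 were not called for mint against no odor, and 3, Olfr170, Olfr1110 and Olfr171, were called higher with mint as well. All 37 receptors higher with mint were called higher with mint than with no odor. Of these, 32 were not called for floral against no odor, and 4, Olfr1123, Olfr1442, Olfr1264 and Olfr353, were called higher with floral as well. Leaving out floral replicate 1 put the adjusted p of floral against mint at 0.0542 for Olfr1442 and 0.153 for Olfr353, whose call was also lost without floral replicate 3, mint replicate 2 or floral-mint replicate 3. Those raised by both fragrances were separated by degree: Olfr1110 averaged 119 CPM with floral, 41.4 CPM with mint and 10.3 CPM with no odor, and Olfr1123 averaged 11.1 CPM with floral, 78.3 CPM with mint and 3.37 CPM with no odor.

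As a share of all counts, receptor genes held 0.429% ± 0.0333 with floral and 0.484% ± 0.0505 with mint (SD, n = 3 each). The difference gave p = 0.3 in a 2-sided exact permutation test, where 3 libraries against 3 cannot go below 0.1. The 23 receptor genes higher with floral held 15.3% ± 0.892 of receptor counts in the floral libraries, 4.01% ± 0.295 in the mint libraries and 3.99% ± 0.0686 in the no-odor libraries. The 37 higher with mint held 3.35% ± 0.0683 in the floral libraries, 23.5% ± 1.86 in the mint libraries and 4.30% ± 0.0272 in the no-odor libraries. The genes were chosen on the floral and mint libraries, so these shares describe the calls and carry no test.

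**Figure D3:**
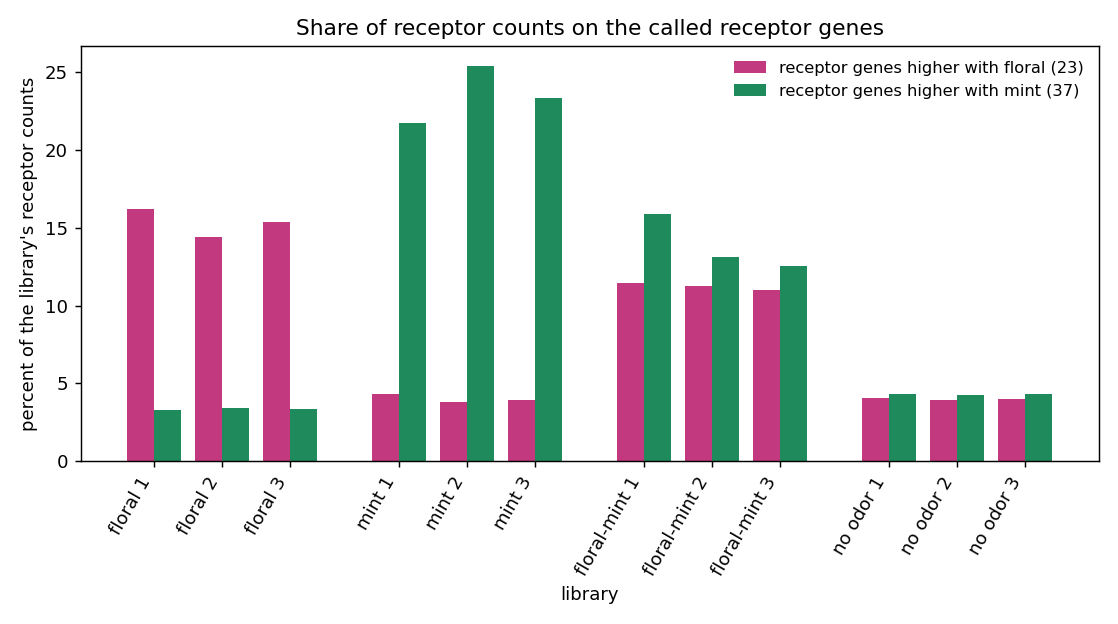
Bars give the percentage of each library's receptor counts that fell on the 23 receptor genes higher with floral and on the 37 higher with mint, for 12 libraries. Floral libraries hold 14.4 to 16.19% on the floral-raised genes and 3.29 to 3.43% on the mint-raised genes; mint libraries hold 3.78 to 4.34% and 21.7 to 25.4%.

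The floral-mint fragrance was given in the same 10 µL, and the amount of each fragrance in it is not given in the sources used here. For 20 of the 23 floral-raised receptors and 36 of the 37 mint-raised ones, the mean with floral-mint lay between the means of the single fragrances. The receptors were chosen for a gap between floral and mint, which by itself favours a place between them. The comparisons with floral-mint also reuse the floral and mint libraries, so they describe the called receptors and carry no independent evidence. On the log2 scale, the floral-raised receptors kept a median of 84.6% of the distance from their mint level to their floral level, and the mint-raised receptors kept a median of 61.5% of the distance from their floral level to their mint level. The difference between these medians was not tested. With floral-mint, 10 of the 23 were called higher than with mint, where 11 of all receptor genes tested were (1.3%), and 18 of the 37 were called higher than with floral, where 18 of all were (2.13%). None of the 23 was called lower with floral-mint than with floral by edgeR (0% of receptor genes tested were called so). Of the 37, 7 were called lower with floral-mint than with mint (0.826% of receptor genes tested), and these were Olfr187, Olfr506, Olfr281, Olfr30, Olfr1047, Olfr1087 and Olfr881. Olfr1087 had 0.467, 0.816 and 1.23 CPM with floral and 3.74, 9.78 and 9.60 CPM with mint, but 0.926, 1.096 and 1.26 CPM with floral-mint, its level with no odor. Olfr881 likewise had 2.39, 3.62 and 5.95 CPM with mint and 0.772, 0.548 and 0.353 CPM with floral-mint.

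**Figure D4:**
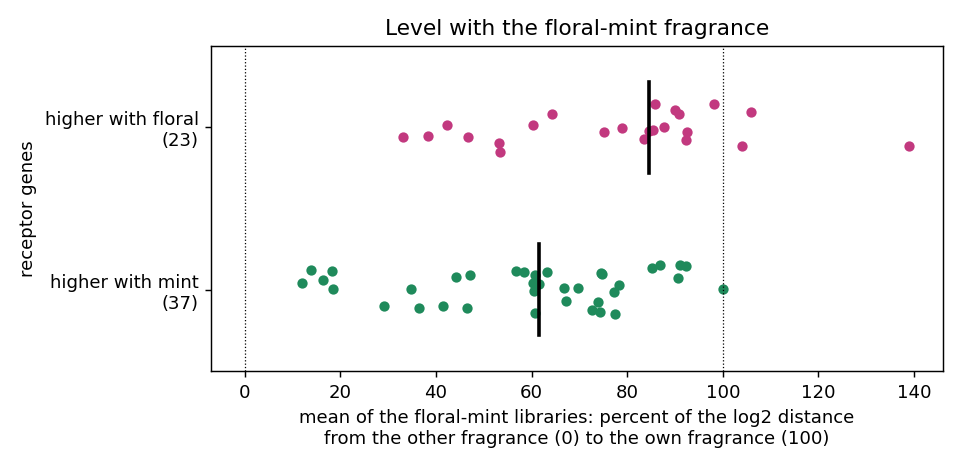
Each point is a called receptor gene, placed by the mean of its 3 floral-mint libraries as a percentage of the log2 distance from the other fragrance (0) to the fragrance it was higher with (100); vertical place within a row has no meaning. The black bars are the medians, 84.6% for the 23 floral-raised and 61.5% for the 37 mint-raised genes, and 5 of the mint-raised genes lie under 20%.

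On chromosome 16, called receptor genes stood in neighbouring series, which were picked for description after their values were seen. In a series of 8 tested genes from Olfr164 to Olfr171, 3 were called, all higher with floral (Olfr167, Olfr170 and Olfr171), and the median log2 difference was 0.48. In the next series of 24 tested genes, from Olfr173 to Olfr209, 7 were higher with mint (Olfr181, Olfr183, Olfr186, Olfr187, Olfr191, Olfr193 and Olfr203) and 1, Olfr195, was higher with floral. Over all receptor genes tested, 2.72% were higher with floral and 4.37% higher with mint. Other series held both directions, with 5 higher with floral and 8 with mint among 163 tested genes on chromosome 2, 4 and 2 among 67 on chromosome 9, and 1 and 7 among 48 on chromosome 19. The median of the series from Olfr173 to Olfr209 was -0.66, against 0.00 over all receptor genes tested. Olfr195 had 9.15, 8.78 and 11.7 CPM with floral and 2.44, 2.96 and 4.83 CPM with mint, a log2 difference of 1.55 (SE 0.246, adjusted p 0.00683, edgeR). Its adjusted p was 0.0505 without floral replicate 3 and 0.0513 without mint replicate 2. Order on the chromosome was taken from GENCODE vM21 on GRCm38, while the submitters' processing notes give GRCm39, so no coordinates are given.

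**Figure D5:**
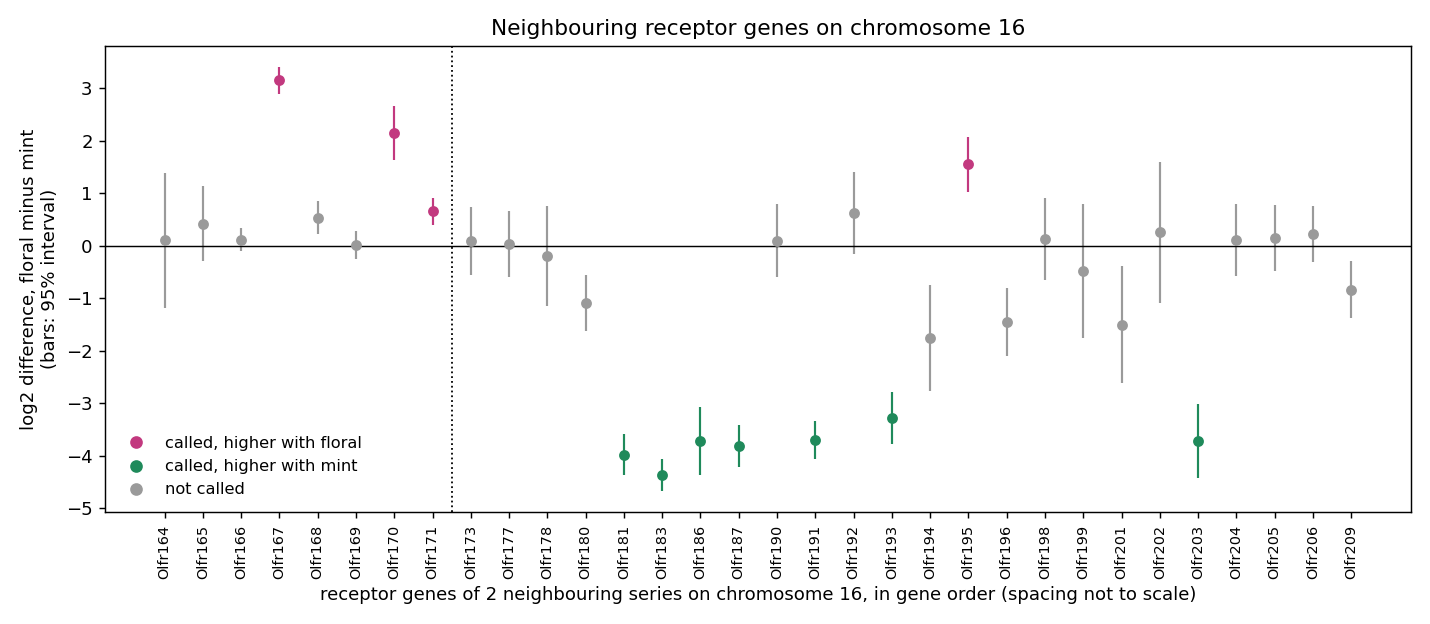
Log2 difference, floral minus mint, with its 95% interval (bars) for 32 receptor genes of chromosome 16 in gene order; the dotted line parts the 2 series, and spacing is not to scale. The 3 called genes of the left series lie above 0, and 7 of the 8 called genes of the right series lie between -3.28 and -4.37.

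Of 40 MOR families with a called member, 13 had at least 2, and these were all higher with floral in 3 families, all higher with mint in 6 and in both directions in 4. MOR183 had 6 tested members, of which Olfr183, Olfr186, Olfr187 and Olfr191 were higher with mint. The other members were Olfr196, at 1.17, 1.40 and 1.27 CPM with floral and 3.54, 4.403 and 2.53 CPM with mint (log2 difference -1.45, adjusted p 0.0619, edgeR), and Olfr190, at 2.38, 2.14 and 0.984 CPM with floral and 1.68, 1.75 and 1.74 CPM with mint. Olfr190 lies between Olfr187 and Olfr191 on the chromosome. In MOR161, 3 of 6 tested members were higher with floral. The third, Olfr145, had 2.73, 2.88 and 1.52 CPM with floral and 0.623, 0.545 and 0.899 CPM with mint, and its adjusted p of 0.0173 was 0.0781 to 0.102 without floral replicate 1, floral replicate 2, mint replicate 1 or mint replicate 2. In MOR202 on chromosome 19, 4 of 19 were higher with mint. The families with both directions were MOR184 (Olfr195 with floral, Olfr181 with mint), MOR231 (Olfr1256 and Olfr1243), MOR256 (Olfr1383 and Olfr1382) and MOR264 (Olfr1126 and Olfr1123). Leaving out 1 library lost the call of Olfr1256 in 4 of 12 fits (adjusted p up to 0.141), of Olfr1383 in 5 (up to 0.123) and of Olfr1382 in 5 (up to 0.15). Among pairs of called receptors with at least 80% identical coding bases, 8 had the same direction and 0 had opposite ones. The 8 include Olfr170 and Olfr171, Olfr191 and Olfr193, Olfr235 and Olfr1431, and Olfr1484 and Olfr1487. The genes of each of these pairs share a stretch at least 95% identical over 200 bases or more. Estimated counts may divide shared reads between such copies, so their directions are not independent. At 70% or more there were 20 and 2, and at 60% or more 56 and 28. Over all 1770 pairs of called receptors, 51.9% had the same direction. Many of the close pairs are neighbours on chromosome 16.

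The closest tested relative of a called receptor was called in the same direction for 9 of the 60 receptors (15%, beside the 7.08% of all receptor genes tested that were called in either direction). It was not called for 51 and was called in the opposite direction for 0, with a median coding identity of 87.44%. Among the 9, Olfr170 and Olfr171, Olfr191 and Olfr193, and Olfr235 and Olfr1431 are each other's closest relatives and so are counted from both sides. The genes of these pairs may also share reads. Olfr181 and Olfr180 are 92.87% identical. Olfr180 had 2.61, 1.63 and 2.09 CPM with floral and 5.27, 3.31 and 5.00 CPM with mint, which does not overlap but was not called (log2 difference -1.09, adjusted p 0.117, edgeR). Olfr113 and Olfr116 are 88.0% identical, and Olfr116 had a log2 difference of 0.23 with a 95% interval from -0.30 to 0.76. Olfr114, 87.38% identical to Olfr113, was called higher with floral (log2 difference 4.32, SE 0.726, adjusted p 0.0115, edgeR). It had 1.21, 1.44 and 3.16 CPM with floral and 0.0479, 0.156 and 0.0562 CPM with mint. Its call was lost in 3 of the 12 fits that left out 1 library. Olfr874 and Olfr875 are 95.61% identical, and Olfr875 had 0.662, 1.44 and 0.697 CPM with floral and 0.575, 0.390 and 0.225 CPM with mint (adjusted p 0.55, edgeR).

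The MOR273 genes printed above show the finest grading. Olfr170 had 125, 91.9 and 148 CPM with floral and 41.2, 22.8 and 18.6 CPM with mint, a log2 difference of 2.14 (SE 0.241, adjusted p 0.000196, edgeR). Olfr171 had 56.0, 57.6 and 59.4 CPM with floral and 36.1, 40.8 and 33.2 CPM with mint, a log2 difference of 0.65 (SE 0.119, adjusted p 0.0228, edgeR). Leaving out any 1 of the 3 floral libraries, or mint replicate 1 or 3, put the adjusted p of Olfr171 at 0.078 to 0.13. Olfr169 had 144, 115 and 117 CPM with floral and 110, 151 and 111 CPM with mint, a log2 difference of 0.01 with a 95% interval from -0.25 to 0.28. With no odor, Olfr169 averaged 11.9 CPM, Olfr170 5.38 CPM and Olfr171 8.37 CPM, so all 3 were several fold higher with either fragrance. Olfr170 and Olfr169 are 95.87% identical and Olfr170 and Olfr171 97.14%, so the authors' estimated counts may divide shared reads among them. Summed into a single row, the 3 genes gave a log2 difference of 0.69 (SE 0.122, adjusted p 0.019, edgeR).

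Close sequence concerns 9 of the 23 receptors higher with floral and 12 of the 37 higher with mint. Their transcripts share a stretch at least 95% identical over 200 bases or more with another receptor gene or pseudogene, called a copy here. Whole coding sequences can differ more: Olfr1442 and Olfr1443 share such a stretch and are 85.94% identical. With near-identical or overlapping receptor genes summed, 52 receptor rows were called, 19 higher with floral and 33 higher with mint. Olfr191 and Olfr193, 96.53% identical and both higher with mint, gave a summed log2 difference of -3.53. Olfr874 summed with Olfr875 gave 3.91, Olfr318 with its copies gave 2.02 and Olfr287 with its copies gave 0.56, each still called. Olfr58 and Olfr195 were not called in their sums.

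Most receptor genes did not pass the test. Of the 787 not called, 313 had a 95% interval of the difference that lay wholly within 2-fold. The 6 uncalled receptors with the highest mean CPM over the 6 libraries included strong responders to both. Olfr48 had 129, 148 and 149 CPM with floral and 143, 151 and 136 CPM with mint, against an average of 6.67 CPM with no odor, and the 95% interval of its log2 difference, floral minus mint, ran from -0.26 to 0.22. Olfr1260 had 183, 166 and 156 CPM with floral and 119, 173 and 138 CPM with mint, with an interval from -0.02 to 0.49. Olfr332 had 48.6, 88.3 and 40.2 CPM with floral and 85.8, 139 and 100 CPM with mint; these overlapped, and its interval from -1.40 to -0.36 left out 0 while the adjusted p was 0.304 (edgeR). Olfr727 and Olfr1348, which averaged 98.6 and 55.7 CPM with no odor, had intervals from 0.03 to 0.37 and from -0.45 to 0.22. Olfr169 was the remaining one.

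Among the genes not counted as receptor genes, 8 were called, 2 higher with floral (0.0109% of those tested) and 6 higher with mint (0.0327%). Receptor pseudogenes were placed among these genes. Those higher with floral were Ppbp and Gp1bb, which encode a platelet chemokine and a platelet surface glycoprotein. Ppbp had 92.9, 109 and 125 CPM with floral and 68.0, 48.0 and 67.8 CPM with mint, a log2 difference of 0.83 (SE 0.155, adjusted p 0.0252, edgeR). Gp1bb had 8.22, 9.75 and 11.9 CPM with floral and 4.69, 1.95 and 3.43 CPM with mint, a log2 difference of 1.58 (SE 0.292, adjusted p 0.0248, edgeR). Without floral replicate 2 the adjusted p was 0.0906 for Ppbp and 0.0809 for Gp1bb, without floral replicate 3 it was 0.172 and 0.15, and without mint replicate 2 it was 0.114 and 0.0967. Without mint replicate 3 that of Gp1bb was 0.0901. A list of 12 platelet genes, made after these values were seen, includes Ppbp and Gp1bb. It summed to 235 to 283 CPM with floral and 131 to 176 CPM with mint. The 7 red blood cell genes summed to 38440 to 74150 CPM with floral and 33610 to 47380 CPM with mint, which overlap. All 7 red blood cell genes had a positive log2 difference, with a median of 0.47, and 4 had an unadjusted p under 0.05. The platelet list had a median of 0.77, with 11 of 12 at an unadjusted p under 0.05 (edgeR). Both values include Ppbp and Gp1bb, so they are not independent of the 2 calls. The median of all genes tested was 0.00. None of the genes of either list was at 0. The part of blood in the difference was not tested.

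Tbx21, a transcription factor of T and NK cells, was higher with mint, at 1.29, 0.583 and 0.697 CPM with floral and 6.90, 2.14 and 3.37 CPM with mint (log2 difference -2.26, adjusted p 0.0445, edgeR). Its adjusted p was 0.0587 to 0.26 in 9 of the 12 fits that left out 1 library, and every floral and mint library but mint replicate 2 was among those 9. A list of T and NK cell genes, added after these values were seen, had a median of -0.54 over 8 tested genes, with Tbx21 its 1 called member. Which cells the Tbx21 RNA came from was not tested. The remaining 5 were also higher with mint. Of these, 2 were the receptor pseudogenes Olfr237-ps1 and Olfr1192-ps1, out of 44 receptor pseudogenes tested. The others were the predicted genes Gm13757 and Gm13723 on chromosome 2, and the pseudogene Vdac3-ps1. Gm13757 had 0.935, 2.22 and 1.52 CPM with floral and 35.9, 30.2 and 47.6 CPM with mint. Vdac3-ps1 differed between mint libraries, at 35.5, 4.44 and 32.9 CPM, against 4.75, 3.93 and 4.02 CPM with floral.

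Across 25 lists, 11 of functions and 14 of cell type markers, 293 different genes were tested and edgeR called none; 57 had an unadjusted p under 0.05, or 19.5%, against 8.19% of all genes tested. The platelet list above and a T and NK cell list, both added after these values were seen, are not among the 25. DESeq2 called 4 list members of the 25. The list medians of the log2 difference ran from -0.57 to 0.47. The immediate early genes, switched on within minutes of firing, had a median of 0.02 over 21 genes, and Fos was at 61.1, 43.3 and 46.6 CPM with floral and 37.6, 53.1 and 40.1 CPM with mint. S100a5, a calcium-binding protein whose level follows activity in these neurons, was at 3838, 4091 and 6415 CPM with floral and 4509, 3924 and 3381 CPM with mint. The 14 transduction genes had a median of -0.14; Cnga2, the cyclic nucleotide-gated channel subunit, was at 642, 754 and 600 CPM with floral and 752, 850 and 896 CPM with mint (adjusted p 0.39, edgeR).

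The median of the gland and odorant-binding list was -0.57 over 24 genes, and its member Bpifb9b was at 106, 10.9 and 119 CPM with floral and 3651, 2.57 and 315 CPM with mint; the mint libraries lay on both sides of the floral ones. The 7 bone and osteoclast markers had a median of 0.42, with 5 at an unadjusted p under 0.05, and summed to 3894 to 4660 CPM with floral and 3133 to 3175 CPM with mint. Odorant metabolism genes, which include the supporting-cell enzyme Cyp2a5, had a median of -0.06 over 40 genes, with 8 at an unadjusted p under 0.05 (edgeR). The axon sorting list had a median of -0.12 over 21 genes, with 7 at an unadjusted p under 0.05 (edgeR). The termination and adaptation list had -0.04 over 18, with 2 such genes. The receptor choice and trafficking list had -0.03 over 17, with 3, and the heat shock list 0.06 over 17, with 2. Over all genes tested, 8.19% had such a p.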

How the data were processed

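The pS6-IP libraries were deposited as a table of estimated counts per gene for each batch. Per the submitters' processing notes, the tools included STAR 2.7.10b, Salmon 1.10.1 and R 4.4.2, with the build GRCm39; the authors' expected counts are not whole in 14.0 to 16.4% of values per library and were rounded. Genes were named by Ensembl ID from GENCODE vM21 (GRCm38), with 52029 of 57010 IDs matched; the IDs without a name held 0.284 to 0.349% of counts. MOR families came from RefSeq. The 12 libraries of the batch were fitted together in edgeR 4.0.16 (R 4.3.3) with a term per group, after filterByExpr (minimum count 10, minimum total 15), with TMM scaling, a prior count of 0.125 and the quasi-likelihood test of floral minus mint. P-values were adjusted over 19204 genes, with the threshold 0.05. CPM values use the scaled library sizes and are not divided by gene length, so they are compared between libraries and not between genes. Intervals are 95% intervals of the fit.

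Coding sequences (longest open reading frame of the GENCODE vM21 transcripts) were compared with blastn 2.17.0 and global alignment in Biopython 1.88. Named genes were the 12 receptors in each direction, and up to 6 other genes in each direction, with the smallest p among called genes whose groups did not overlap, leaving out predicted genes and pseudogenes, plus the 6 uncalled receptors of highest mean CPM; others were chosen after their values were seen. The comparison, the members and the gene lists were chosen with earlier results of these data known. The fit was tested on simulated counts. Alternatives covered the tool (DESeq2 1.42.0), scaling, filters, libraries in the fit, the replicate block, each library left out and, added after seeing the data, summed near-identical receptors.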

Additional observations from a re-analysis of the deposited data

How the results depend on the processing

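No log2 difference of the 27 called named genes, and no difference in receptor share, changed sign under any alternative run for it, of which a gene had up to 21. The 27 were picked for a small p and for groups that did not overlap, so their kept sign was nearly fixed by that choice. Of the 60 receptor genes, 33 were called in every alternative (11 higher with floral, 22 with mint), and 39 in all 12 fits that left out 1 library. Called receptor genes numbered 44 to 64 (16 to 24 with floral, 26 to 43 with mint) when 1 library was left out, called genes of any kind 47 to 71 (18 to 27 with floral, 28 to 50 with mint), called genes other than receptors 1 to 17, and called list members 0 to 2. Other scalings moved the median of all genes by at most 0.04 (log2). Without a filter on low counts, 112 receptor genes (42 with floral, 70 with mint) and 479 genes in all (177 and 302, 367 of them no receptors) were called, among them 44 list members. DESeq2 called 129 genes (46 with floral, 83 with mint), 48 of them no receptors and 4 of them list members. With all 36 libraries in a fit, 13 receptor genes and 13 genes in all were higher with floral, and 3 genes that were no receptors were called. Among receptors higher with mint, Olfr183 and Olfr181 kept their call in that fit, and Olfr1179 and Olfr881 lost it. With the 6 libraries alone, 2 list members were called. The cause of these shifts was not tested. The receptor share difference, floral minus mint, lay between -0.0840 and -0.0380 percentage points with 1 library left out.

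The labels do not say whether same-numbered libraries share a day or a litter. Deviations from the group means correlated at -0.016, -0.13 and -0.19 between same-numbered floral and mint libraries. Between differently numbered ones they correlated at -0.040 to 0.16. Deviations within a group sum to 0, so these few correlations cannot decide whether the libraries are paired. With the number as a replicate block, 54 receptor genes and 60 genes in all were called. Receptors at a few counts, such as Olfr113 and Olfr494, are limited by depth.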
